A study of Caenorhabditis elegans with 23 samples.

Results

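The windows described here are the 190 windows of 1 kb, of 100257 in the deposited table, that the authors marked GRH and did not mark GRTS. In this field GRH stands for germline nuclear RNAi-dependent heterochromatin, and GRTS for germline nuclear RNAi-dependent transcriptional silencing. The table does not say how or on which samples the marks were set, so their independence from these libraries is not known. A further 166 windows carried GRTS alone and 25 carried both marks. In the worm germline, nuclear RNAi depends on HRDE-1, a nuclear Argonaute whose bound small RNAs direct it to nascent transcripts of matching sequence. It is needed for silencing that passes between generations and for histone H3 lysine 9 methylation at its targets. Going by the names of the marks alone, chromatin and transcription are classed apart at GRH windows that are not GRTS. The question is how the RNA of these windows varied with genotype.

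Total RNA of whole young adult C. elegans hermaphrodites, freed of ribosomal RNA and not selected for poly(A), was sequenced in 19 libraries used here of 23 samples. The other 4, from generation F20, were not analysed here. Each genotype and generation had 1 library, so that different strains alike in hrde-1 and set-32 stand in for replicates. After repair, different generations of the same genotype also stand in for replicates, and these may not be independent. The hrde-1(tm1200) mutation was present in 5 libraries: alone, with set-32(ok1457), with set-32(red11), with met-2(n4256) set-25(n5021), and with red11 and met-2 set-25. In 9 libraries hrde-1 had been repaired, written +R in the labels, and worms were taken at generations F3 to F8. Of these, 5 carried set-32 mutations (ok1457 at F5 and F8, red11 at F4 and F5, and red11 with met-2 set-25 at F5). The other 4 were set-32(+), with no other mutation at F4 and F5, and with met-2 set-25 at F3 and F5. The last 5 libraries had an hrde-1 gene that was never mutated: wild type N2, ok1457, red11, met-2 set-25, and ok1457 with met-2 set-25. SET-32 is a SET-domain protein of the nuclear RNAi pathway, and MET-2 and SET-25 are H3 lysine 9 methyltransferases. The worms were whole animals, so fewer germ cells and less RNA per germ cell cannot be told apart.

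The library labels were checked at the mutated genes, whose level is the mean RPKM of their windows. The median for hrde-1 was 92.5 RPKM in the 5 tm1200 libraries (range 85.6 to 139) and 191 in the other 14 (125 to 271). For met-2 the median was 7.22 RPKM in the 7 mutant libraries and 38.7 in the other 12, with ranges that did not overlap. For set-25 it was 7.92 against 14 RPKM and for set-32 5.45 against 13.7 RPKM, with ranges that overlapped slightly. Germline markers were present throughout, the lowest being the P-granule helicase gene glh-2 with at least 33.3 RPKM in every library. The estimated depth was 458687 to 1152825 reads, so that 1 read was worth 0.867 to 2.18 RPKM and low windows hold only a handful of reads.

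The 190 windows lay on all 6 chromosomes, 49 on I, 32 on II, 32 on III, 43 on IV, 31 on V and 3 on X. They formed 87 runs when windows at most 1 kb apart were joined, and 46 of the runs were single windows. Annotated genes overlapped 151 of them by at least 250 bp, with 106 distinct gene names. Pseudogenes overlapped 53 windows, 27.9%, against 3.71% of the windows with neither mark and 9.04% of those with GRTS alone. Protein-coding genes overlapped 101. No exon overlapped 41 windows, 21.6%, against 23.9% of the windows with neither mark. In 63 windows, 33.2%, most values were not whole multiples of 1 read, against 12.4% of the windows with neither mark, and these are called windows of divided reads below. Whether they share sequence with other windows was not tested. A GRTS window lay within 1 kb of 14 of the 190 and within 5 kb of 40. Over the 19 libraries together their RNA level was intermediate: the median of mean RPKM was 3.84, against 6.75 for both marks, 1.84 for GRTS alone and 0.516 for neither. This order depends on the mix of genotypes. Among windows averaging at least 1 RPKM, the median log2(RPKM + 1) in never-mutated libraries averaged 2.16 here and 0.457 at GRTS windows of either kind. In tm1200 libraries these medians averaged 2.86 and 3.00.

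Windows were tested where they averaged at least 1 RPKM over the 19 libraries, which kept 154 of the 190, 81.1%, and 41323 of all windows. The 36 others had means of at most 0.966 RPKM, and 2 of them were listed at 0 in every library. A window high in a single group, such as tm1200, could pass this filter through that group alone. Counts of tested windows that rose or separated include such windows, and to that extent depend on the filter. A window was called when limma gave a Benjamini-Hochberg adjusted p under 0.05 over all 41323 windows and the log2 fold change was 1 or more in size. Fold changes are on the log2(RPKM + 1) scale, which understates changes of low windows.

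RNA from these windows was higher in libraries that carried hrde-1(tm1200). Summed over all 190, it was 1782 RPKM in tm1200 alone, 1799 with met-2 set-25, 1457 with ok1457, 2049 with red11 and 1769 with red11 and met-2 set-25. The never-mutated libraries held 1080 RPKM in N2, 930 with met-2 set-25, 1075 with ok1457, 1015 with red11 and 1176 with ok1457 and met-2 set-25. Every tm1200 library was above every never-mutated one, with means of 1771 ± 210 and 1055 ± 90.7 RPKM (SD, n = 5 each). The mean of tm1200 libraries exceeded that of never-mutated ones in 147 of the 190 windows, 77.4%, and was lower in 37. Over all windows of the table it was higher in 37.0% and lower in 39.4%.

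**Figure D1:**
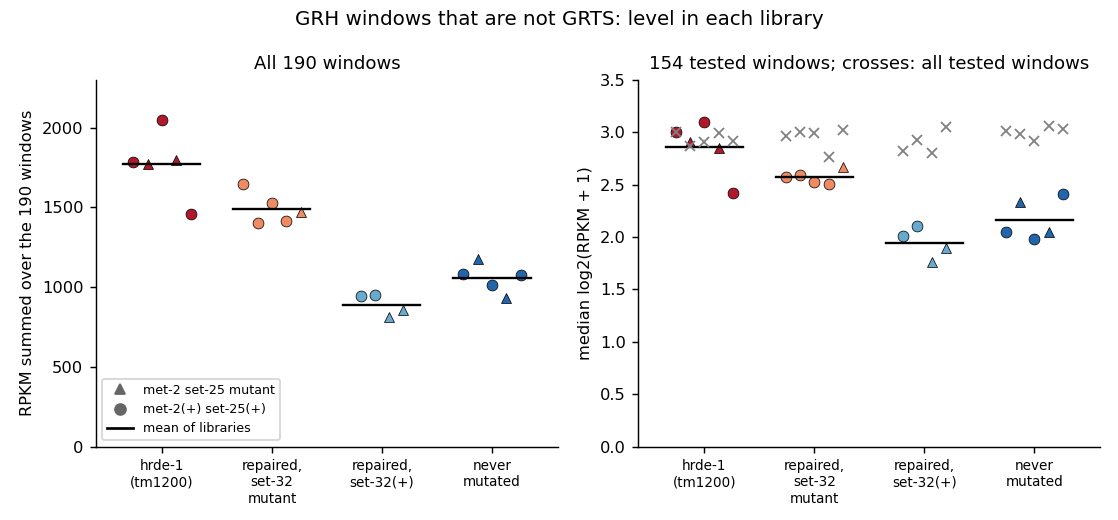
Level of the GRH windows that are not GRTS in each of 19 libraries, as RPKM summed over 190 windows (left) and as the median log2(RPKM + 1) of the 154 tested windows (right). Triangles are met-2 set-25 mutants, circles the others, bars group means and grey crosses the median of all 41323 tested windows. In both measures each tm1200 library and each repaired set-32 mutant is above each repaired set-32(+) and never-mutated library, while the crosses lie between 2.76 and 3.06 in every group.

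In the test, 12 of the 154 windows rose with hrde-1(tm1200) and 0 fell, where 0.37% of all tested windows rose and 0.0242% fell. Their median log2 fold change was 0.59, against -0.04 over all tested windows, and 126 (81.8%) were positive, against 45.2%. At an unadjusted p under 0.05, 55 were higher, against 2.81% of all tested windows, and 1 was lower, against 2.79%. Windows with GRTS alone had a median of 2.01 with 50 of 121 called, and those with both marks 3.09 with 15 of 21 called. The shift of the 154 was thus smaller than that of the GRTS windows, and no test was made between these lists. In 24 windows all 5 tm1200 values were above all 5 never-mutated values, and in 0 below, where 0.871% and 0.486% of all tested windows separated in these ways.

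The 12 called windows formed 10 regions. Together they held 372 ± 61.1 RPKM in tm1200 and 57.1 ± 31.5 in never-mutated libraries (SD, n = 5 each), while the other 178 held 1399 ± 167 and 998 ± 80.6 RPKM. The difference over the 190 was therefore not carried by the called windows alone.

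Among protein-coding genes the largest change was at timm-17B.2 (IV 8397001 to 8398000, 33.9% exon), a homologue of the Tim17 subunit of the mitochondrial inner membrane translocase. It stood at 165 RPKM in tm1200 alone, 178 with met-2 set-25, 131 with ok1457, 172 with red11 and 113.4 with red11 and met-2 set-25. Of the never-mutated libraries it had 66.0 RPKM in ok1457 and 41.5 in ok1457 with met-2 set-25, but 5.66, 2.51 and 3.29 in N2, met-2 set-25 and red11. The groups did not overlap, and the never-mutated libraries split by the ok1457 allele (log2 fold change 3.61 ± 0.49 SE, limma adjusted p = 7.22e-05). F15D4.5 (II 13246001 to 13247000, 72.3% exon) lies within 1 kb of a GRTS window. Its level was 77, 78.9, 41.4, 93 and 99.2 RPKM in the tm1200 libraries in the order used above. It was 4.25, 28.9 and 5.73 RPKM in the never-mutated N2, met-2 set-25 and ok1457, 0 in red11 and 21.9 in ok1457 with met-2 set-25. The groups did not overlap here either, and the 2 highest never-mutated values were both from met-2 set-25 mutants (3.33 ± 0.44, limma adjusted p = 3.99e-05). At scrm-4 (I 11681001 to 11682000, 53.9% exon), a phospholipid scramblase gene, the tm1200 libraries ran from 6.54 to 32.5 RPKM and the never-mutated ones from 0 to 4.30 (2.61 ± 0.46, limma adjusted p = 0.00288). Both windows over T16G12.12 (III 10057001 to 10059000) rose, and the second also overlaps T16G12.4. That window, III 10058001, stood at 22.1 to 40.2 RPKM in tm1200 and 2.30 to 7.53 in never-mutated libraries (2.19 ± 0.32, limma adjusted p = 0.000186). WBGene00018851 (I 10784001, 30.4% exon), a protein-coding gene with no symbol in the annotation, had 12.3 to 18.6 RPKM in tm1200 and 0 to 4.30 in never-mutated libraries, also without overlap (2.53 ± 0.45, limma adjusted p = 0.00277).

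Of the other called regions, 3 overlapped pseudogenes and 2 overlapped no gene. The pseudogene WBGene00021673 (I 248001 to 251000) had 6.30 to 28 RPKM in tm1200 and 0 to 4.93 in never-mutated libraries at I 250001, a window of divided reads with no exon (2.67 ± 0.47, limma adjusted p = 0.00242). The groups did not overlap. At I 251001, a further window of this pseudogene, they did, with 4.18 to 17.7 and 2.51 to 12.4 RPKM (0.49, limma adjusted p = 0.976). WBGene00305980 (III 7671001, also of divided reads) had 2.18 to 13.1 RPKM in tm1200 and 0 to 3.26 in never-mutated libraries, with overlap (2.31 ± 0.52, limma adjusted p = 0.0371). WBGene00014884 (III 13163001) was listed at 0 in all 5 never-mutated libraries and stood at 1.75 to 9.74 RPKM in tm1200 (limma adjusted p = 0.0173), so no fold is given. It passed the filter only through the tm1200 libraries, since the other groups averaged at most 0.782 RPKM. Its call is therefore not independent of the filter. The regions without a gene were V 5477001 (3.10 ± 0.52, limma adjusted p = 0.00151) and V 5474001 (2.54 ± 0.57, limma adjusted p = 0.0342), both in the run of 7 windows described below.

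**Figure D2:**
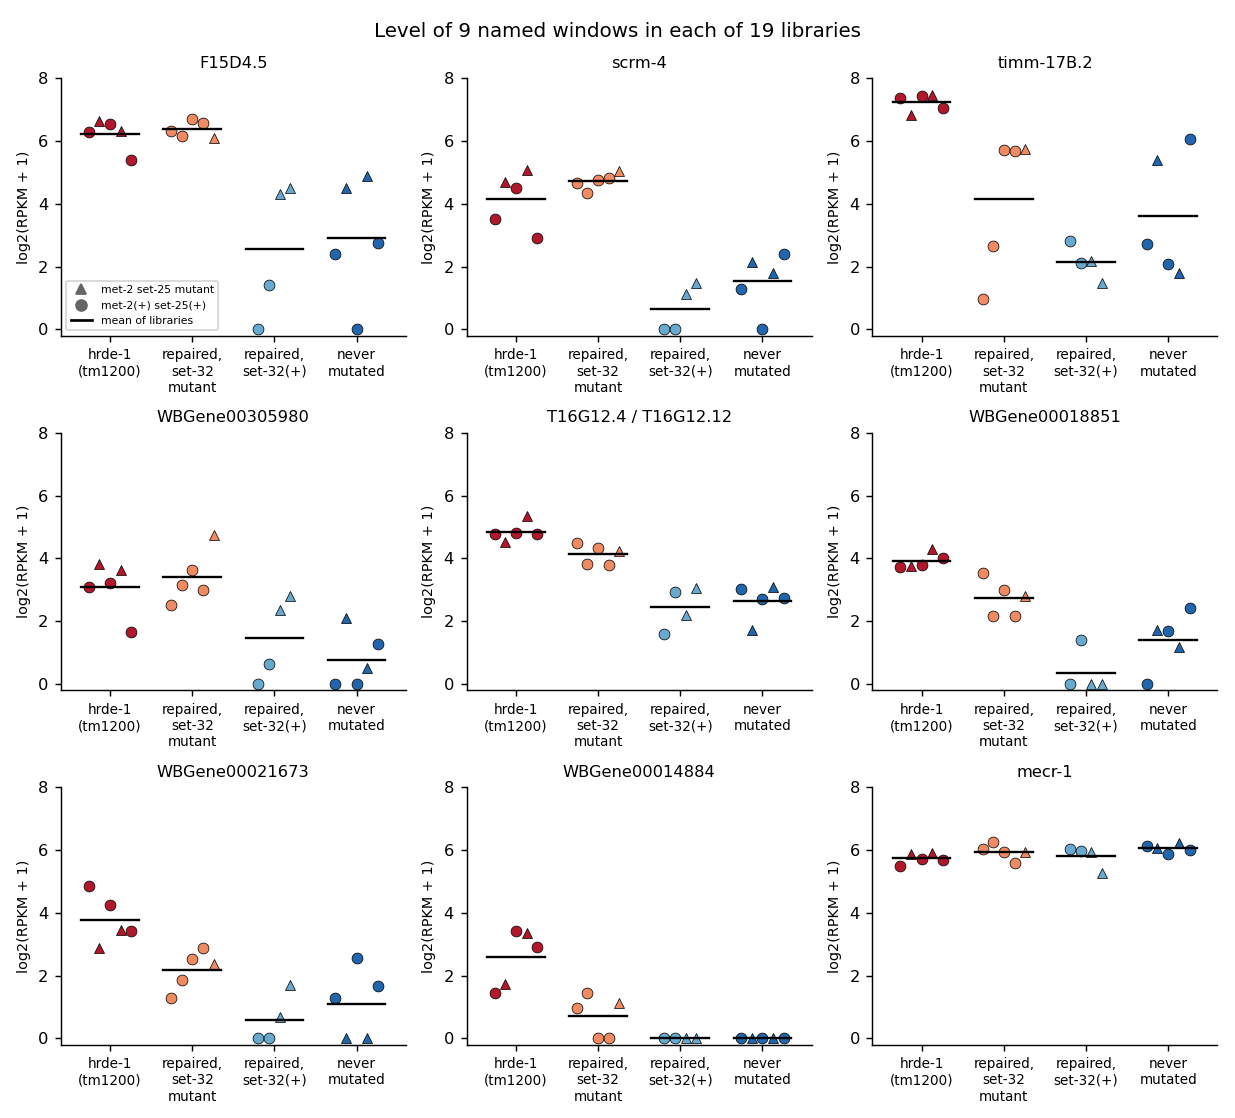
Level of 9 named windows, as log2(RPKM + 1), in each of 19 libraries; triangles are met-2 set-25 mutants, circles the others and bars group means. F15D4.5 and scrm-4 stay high in all 5 repaired set-32 mutants and low in the 4 repaired set-32(+) libraries, timm-17B.2 is high in 3 of the 5, and mecr-1 is at 37.4 to 75.4 RPKM throughout.

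Without the met-2 set-25 libraries, which leaves 3 against 3, 1 window was called, F15D4.5 (limma adjusted p = 0.0383), although the 12 log2 fold changes stayed at 1.96 to 4.37. Leaving out 1 library ended 5 of the 12 calls: III 10057001 without tm1200 with met-2 set-25 or with red11 (limma adjusted p up to 0.0617), III 13163001 without 5 libraries (those of red11 alone or met-2 set-25 alone, with or without tm1200, or ok1457 with met-2 set-25; up to 0.151), V 5474001 without any but N2, ok1457 with met-2 set-25, and ok1457 tm1200 (up to 0.298), and I 248001 and III 7671001 without any but the 2 libraries of ok1457 alone (up to 0.124 and 0.23). The other 7 calls held without any 1 library but not under every other setting. The call at F15D4.5 ended when 0.1 was added in place of 1 before taking logs. Both that call and the one at timm-17B.2 ended when windows down to 0.2 RPKM or of any level were tested, and without the trend in limma's prior. Without the trend 8 windows were called: those of F15D4.5, scrm-4, timm-17B.2, WBGene00305980 and V 5474001 were lost and II 11173001 was gained. With strain background as a block, in the 4 backgrounds that had a library of both hrde-1 states, 9 windows were called, and I 248001, V 5474001 and WBGene00305980 were not.

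The median log2 fold change was 0.61 in the 46 tested windows of 1 to 3 RPKM, 0.58 in the 73 of 3 to 10 RPKM and 0.57 in the 35 of 10 RPKM or more, while all windows of these levels had medians of -0.03, -0.07 and -0.04. It was 0.65 in the 47 tested windows with a pseudogene and no protein-coding gene, 0.44 in the 85 with a protein-coding gene and 0.67 in the 22 with neither. Windows of whole reads had 0.72 (n = 97) and windows of divided reads 0.29 (n = 57). By distance, the median was 0.53 in the 9 tested windows within 1 kb of a GRTS window, 0.94 in the 30 at 2 to 10 kb and 0.49 in those farther away on the same chromosome. The median was thus positive at every level, gene type and distance. These splits were described and not tested.

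Most of the 10 windows with the highest mean held protein-coding genes. Of these, timm-17B.2 and F15D4.5 were called and the other 8 were not. The mecr-1 window (II 13186001), for a mitochondrial enoyl-CoA reductase, stood at 52.6 ± 6.23 RPKM in tm1200 and 66.3 ± 6.09 in never-mutated libraries (SD, n = 5 each; log2 fold change -0.33, limma adjusted p = 0.948). R06C1.4 (I 11931001) stood at 68.0 ± 5.68 and 59.6 ± 24.4 RPKM. The topoisomerase II homologue cin-4 (II 7040001), the Gq alpha subunit gene egl-30 (I 1838001) and the cysteinyl-tRNA synthetase gene cars-1 (I 2626001) had log2 fold changes of 0.25, 0.52 and 0.20. The mutator helicase gene mut-14 (V 5659001), needed for small RNA amplification, had -0.16, and dscc-1 with K09H9.7 (I 3150001) had -0.08. At the pseudogene WBGene00018852 (I 10785001) the levels were 36.9 ± 3.24 RPKM in tm1200 and 21.3 ± 2.28 in never-mutated libraries, without overlap (0.77, limma adjusted p = 0.334). The windows of cin-4, cars-1, mut-14 and dscc-1 were of divided reads.

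After repair of hrde-1 the level differed by set-32 state. Summed over the 190 windows, the set-32 mutants held 1646 RPKM in ok1457 at F5, 1404 in ok1457 at F8, 1525 and 1415 in red11 at F4 and F5, and 1469 in red11 with met-2 set-25 at F5. The set-32(+) libraries held 946 and 949 RPKM at F4 and F5, and 813 and 856 in met-2 set-25 at F3 and F5. All 5 set-32 mutants were above all 4 set-32(+) libraries, with means of 1492 ± 99.1 (SD, n = 5) and 891 ± 67.7 (n = 4). Most of these libraries are generations of a genotype that is also present at another generation. The SDs, and the p-values after repair, treat them as separate. The mean was higher in the set-32 mutants in 80.0% of the 190 windows and lower in 35 of them, against 37.8% and 40.7% of all windows of the table. Estimated reads averaged 1006259 in the mutants and 759072 in set-32(+) libraries, and with all libraries thinned to the lowest depth the median log2 fold change between these groups was 0.59.

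Of the 154 tested windows, 3 rose in repaired set-32 mutants and 0 fell, against 0.075% and 0% of all tested windows. The median log2 fold change was 0.58, against 0.03 over all, and 132 (85.7%) were positive, against 53%. At an unadjusted p under 0.05, 47 were higher (3.91% of all tested windows) and 1 lower (2.45%). In 19 windows all set-32 mutant values were above all set-32(+) values and in 0 below, where 1.03% and 0.726% of all tested windows separated so.

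The 3 windows that rose were those of F15D4.5, scrm-4 and WBGene00305980. F15D4.5 stood at 79.7 and 70.1 RPKM in ok1457 at F5 and F8, 105 and 94 in red11 at F4 and F5, and 67.7 in red11 with met-2 set-25. It stood at 0 and 1.66 RPKM in the set-32(+) libraries at F4 and F5, and at 19 and 21.9 in their met-2 set-25 counterparts. The groups were far apart, and within set-32(+) both met-2 set-25 libraries were the higher (4.39 ± 0.53, limma adjusted p = 0.000314). At scrm-4 the set-32 mutants had 24.3, 19.3, 26, 27.7 and 32.1 RPKM in the same order, and the set-32(+) libraries 0, 0, 1.19 and 1.82. The mutants varied by less than 1 doubling and the set-32(+) libraries stood at 2 reads or fewer (4.34 ± 0.38, limma adjusted p = 3.69e-06). WBGene00305980 had 4.70, 7.89, 11.4, 6.92 and 25.7 RPKM in the mutants and 0, 0.55, 4.17 and 5.92 in set-32(+) libraries, with overlap (2.56 ± 0.44, limma adjusted p = 0.0216). That last call ended without any 1 of 6 of the 9 libraries, all but ok1457 at F5, set-32(+) at F5 and met-2 set-25 at F5 (limma adjusted p up to 0.115), and without all met-2 set-25 libraries (0.179). The call at F15D4.5 held without any 1 library. It ended when 0.1 was added in place of 1 before taking logs, and without the trend in limma's prior. It also ended when windows down to 0.2 RPKM or of any level were tested. The call at scrm-4 held under every alternative.

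The other 9 windows called with tm1200 were not called here, and their levels after repair varied. T16G12.4 with T16G12.12 at III 10058001 had 12.7 to 21.4 RPKM in repaired set-32 mutants and 2.02 to 7.29 in set-32(+) libraries, without overlap (1.76 ± 0.38, limma adjusted p = 0.167). WBGene00018851 had 3.46 to 10.7 against 0 to 1.66 RPKM, also without overlap (2.27 ± 0.54, limma adjusted p = 0.243). At timm-17B.2 the 3 red11 libraries had 52, 50.8 and 53.4 RPKM and the ok1457 libraries 0.97 and 5.26, against 1.82 to 6.06 in set-32(+) libraries (2.17 ± 0.80, limma adjusted p = 0.753). The alleles thus stood apart at this gene, in the reverse sense to the never-mutated libraries, where ok1457 was high and red11 low. This split was chosen after its values were seen and was not tested. At 4 windows the repaired groups overlapped in a range of levels: the set-32 mutants had 1.46 to 6.34 RPKM and the set-32(+) libraries 0 to 2.28 at I 250001 (limma adjusted p = 0.569), 7.01 to 24.9 and 1.82 to 11.6 at III 10057001 (0.819), 3.51 to 42.8 and 0.91 to 9.94 at V 5474001 (0.768), and 4.34 to 30.1 and 1.37 to 8.08 at V 5477001 (0.768). The remaining 2 stood low in every repaired library. At I 248001 the repaired set-32 mutants averaged 1.73 RPKM and the repaired set-32(+) libraries 0.753, against 11 in tm1200 and 1.85 in never-mutated libraries (0.93 for set-32 after repair, limma adjusted p = 0.823). At III 13163001 the repaired set-32 mutants averaged 0.782 RPKM, the tm1200 libraries 5.94, and every repaired set-32(+) and never-mutated library was listed at 0.

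**Figure D3:**
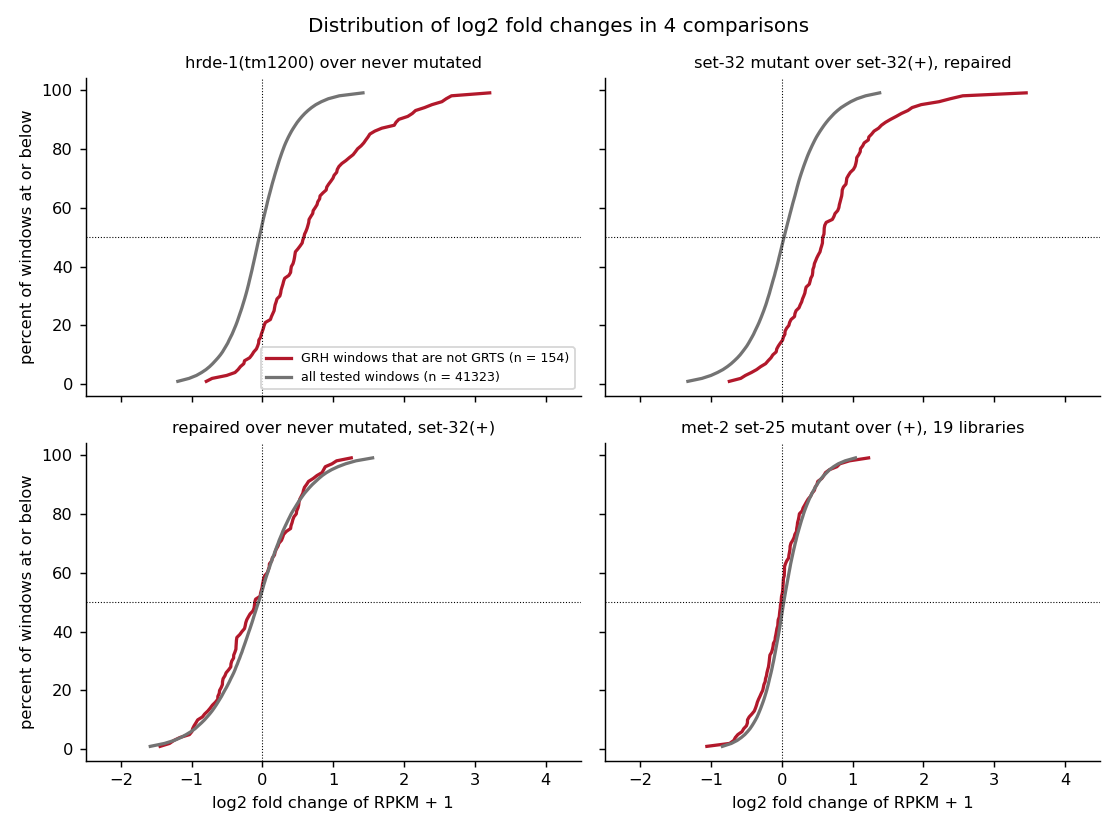
Share of windows at or below each log2 fold change, from the 1st to the 99th percentile, for the 154 tested GRH windows that are not GRTS (red) and all 41323 tested windows (grey), in 4 comparisons. The red curve lies to the right with hrde-1(tm1200) (median 0.59) and with set-32 mutation after repair (0.58), and close to the grey one for repaired set-32(+) over never-mutated libraries (-0.11) and for met-2 set-25 (-0.01).

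The comparisons of hrde-1(tm1200) and of set-32 after repair share no library, although the repaired lines come from tm1200 worms. Across the 154 windows their log2 fold changes correlated with Pearson's r = 0.56 and Spearman's rho = 0.43, against r = 0.12 across all tested windows. Windows are not independent replicates. Both were positive in 110 windows, 71.4%, against 24.9% of all tested windows. The 3 windows called for set-32 after repair were all among the 12 called for tm1200, which is 100% of the first list and 25% of the second. Over all tested windows 31 and 153 were called higher in these comparisons. The overlap of those lists was not computed, so the 3 cannot be set against it. Of the 55 windows higher with tm1200 at an unadjusted p under 0.05, 53 had a positive log2 fold change in the repaired set-32 mutants. Of all 154 windows, 85.7% were positive in that comparison, so most of the 55 would be so in any case. The same share was not computed for all tested windows higher with tm1200.

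**Figure D4:**
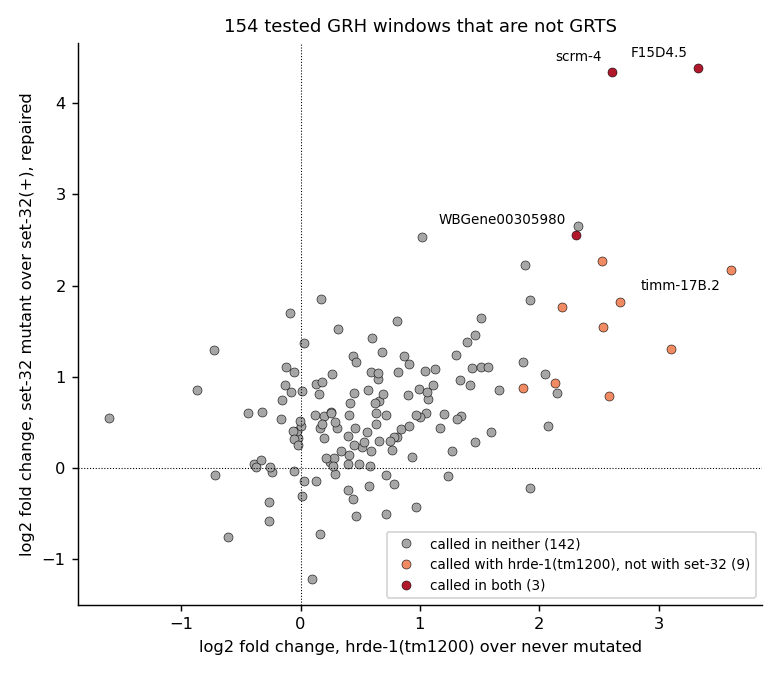
Log2 fold change of each of the 154 tested windows with hrde-1(tm1200) over never mutated (x axis, 5 against 5 libraries) and with set-32 mutation over set-32(+) after repair (y axis, 5 against 4). Colours give the calls: F15D4.5, scrm-4 and WBGene00305980 are called in both. On the y axis all 12 called windows lie above 0, as do 85.7% of the 154.

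Set against never-mutated libraries of the same set-32 state, repaired set-32 mutants stayed higher. In all, 5 of the 154 windows rose, against 0.128% of all tested windows, and 0 fell, against 0.00968%; the median log2 fold change was 0.27 against 0.04, and 110 were positive (71.4%, against 53.8%). At an unadjusted p under 0.05, 25 were higher (against 2.36%) and 0 lower (against 1.16%). The 5 windows that rose were F15D4.5 (83.2 ± 15.8 RPKM, n = 5, in repaired mutants; log2 fold change 4.19 ± 0.61, limma adjusted p = 0.000513), scrm-4 (3.34 ± 0.48, limma adjusted p = 0.000474), V 5475001 (limma adjusted p = 0.0478), V 5477001 (2.94, limma adjusted p = 0.0378) and WBGene00305980 (2.47, limma adjusted p = 0.0448). V 5475001 had 36.5 and 9.64 RPKM in repaired ok1457, 5.64 and 5.77 in repaired red11 and 3.56 in repaired red11 with met-2 set-25, and was listed at 0 in the 3 never-mutated set-32 mutants, so no fold is given. The never-mutated set-32 mutants had 0, 0 and 1.10 RPKM at V 5477001. The calls at F15D4.5 and scrm-4 held without any 1 library. Both ended when 0.1 was added in place of 1 before taking logs. That at F15D4.5 also ended without a filter and without the trend. The other 3 calls depend on single libraries. Leaving out 1 of the 19 libraries in that fit ended all 3 calls when it was tm1200 alone or with met-2 set-25, any repaired ok1457 library, repaired red11 at F5, or any never-mutated set-32 mutant. The calls at V 5475001 and WBGene00305980 also ended without repaired met-2 set-25 at F3 or F5 or repaired red11 at F4. Without repaired red11 with met-2 set-25 those at WBGene00305980 and V 5477001 ended. Without red11 tm1200 or repaired set-32(+) at F5 that at V 5475001 ended, and without tm1200 with red11 and met-2 set-25 that at WBGene00305980. The limma adjusted p reached 0.387 at V 5475001, 0.434 at V 5477001 and 0.462 at WBGene00305980. Within ok1457 and red11 alone, with strain background as a block (4 repaired against 2 never-mutated libraries), 3 windows were called, F15D4.5, scrm-4 and V 5475001, and without the block 2 were called in the same 6 libraries.

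In set-32(+) worms the same comparison of repaired with never-mutated libraries called 0 windows by limma, against 0% of all tested windows. Without adjustment, 1 window was higher at p under 0.05, against 2.82%, and 4 were lower, against 3.14%, and the median log2 fold change was -0.11, against -0.06 over all. Of the 190 windows, 87 (45.8%) had a higher mean after repair than in never-mutated libraries and 88 (46.3%) a lower one, against 39.6% and 33.7% of all windows of the table. The largest values were at the pseudogene WBGene00020262 (I 5453001), with 0 to 6.62 RPKM in repaired and 2.83 to 8.79 in never-mutated libraries (-1.65, limma adjusted p = 0.822), at parn-1 (V 12695001; -1.57, limma adjusted p = 0.819) and at zfp-1 (III 8795001; 1.45, limma adjusted p = 0.835). The gene parn-1 encodes the ribonuclease that trims piRNA 3′ ends, and zfp-1 a homologue of the chromatin protein AF10. The difference between the 2 set-32 states, a comparison added after the data were seen, was called at 2 of the 154 windows, against 0.029% of all tested windows. These were F15D4.5 (difference of log2 fold changes 5.27 ± 0.95, limma adjusted p = 0.0226) and scrm-4 (4.22 ± 0.75, limma adjusted p = 0.0203). This difference was positive in 17 windows, against 2.16%, and negative in 0, against 1.35%, at an unadjusted p under 0.05. Leaving out N2, red11, met-2 set-25, or repaired red11 at F4 or F5 ended both calls, ok1457 with met-2 set-25 that of scrm-4, and repaired set-32(+) at F4 or F5 that of F15D4.5 (limma adjusted p up to 0.4 and 0.278 for F15D4.5 and scrm-4).

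Mutation of set-32 without repair changed no called window: limma called 0 of the 154, against 0% of all tested windows. At an unadjusted p under 0.05, 2 were higher, against 1.64%, and 0 lower, against 1.92%. The median log2 fold change was 0.08, against -0.05 over all, and 61.7% were positive, against 44.5%. Summed over the 190 windows, tm1200 libraries held 1758 ± 297 RPKM with a set-32 mutation (SD, n = 3) and 1790 ± 12.2 without (n = 2). Never-mutated libraries held 1089 ± 81.3 with a set-32 mutation (n = 3) and 1005 ± 107 without (n = 2). The largest values were 1.24 at WBGene00020262 (I 5452001), -1.16 at V 5478001 and -1.02 at gldi-6 with C16C8.21 (II 3448001), each with a limma adjusted p of 1.

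No window was called for loss of met-2 and set-25. In the fit over all 19 libraries, 7 against 12, limma called 0 of the 154, against 0.0847% of all tested windows higher and 0.029% lower. At an unadjusted p under 0.05, 7 were higher (against 3.68%) and 5 lower (against 2.08%), the median log2 fold change was -0.01, against 0.03 over all, and 47.4% were positive, against 53.9%. In no window did the 7 mutant and the 12 other libraries separate, where 0.0823% of all tested windows separated higher and 0.0169% lower. The mean of the 7 mutants was higher in 68 of the 190 windows and lower in 120, 63.2%, against 43.5% and 41.1% of all windows of the table. These means do not adjust for the share of tm1200 and repaired set-32 libraries, which differed between the 7 and the 12. Fitted within the 10 libraries without repair, limma called 0 (background 0.0581% higher, 0.0121% lower), with 4 higher (against 3.58%) and 4 lower (against 2.24%) at an unadjusted p under 0.05. Within the 9 repaired libraries it also called 0 (0.00484% and 0.0218%), with 4 higher (against 3.49%) and 6 lower (against 2.66%); the median was 0.00, against 0.04 over all, where 54.1% were positive.

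The largest value over all 19 was at F15D4.5, with 1.75 ± 0.41 (limma adjusted p = 0.0978). In libraries of its low state, which are those never mutated or repaired and set-32(+), the 4 met-2 set-25 mutants had 28.9, 21.9, 19 and 21.9 RPKM. The other 5 had 4.25, 5.73, 0, 0 and 1.66 RPKM. These values did not overlap, but the libraries were set together after the values were seen. F15D4.5 passed the threshold without red11 met-2 set-25 at F5 (2.26, limma adjusted p = 0.0109), with reads thinned to one depth (1.72, limma adjusted p = 0.027) and without windows of divided reads (limma adjusted p = 0.0463). Among the repaired libraries alone it also passed without red11 met-2 set-25 at F5 (3.71, limma adjusted p = 0.000551). The protein-coding gene R11A8.1 (IV 10356001), named after its values were seen, had a low, median and high of 1.82, 10.4 and 21.7 RPKM in met-2 set-25 mutants, and of 12.1, 19 and 29.8 in the others, with overlap (-1.12 ± 0.25, limma adjusted p = 0.0686). It was called lower without tm1200 with red11 and met-2 set-25 (-1.29, limma adjusted p = 0.0429) and without ok1457 tm1200 (limma adjusted p = 0.0335). Among the repaired libraries alone it was called lower without red11 met-2 set-25 at F5 (-2.30, limma adjusted p = 0.0475). WBGene00305980 had 1.45 (limma adjusted p = 0.122). At V 12693001 in parn-1 the median was 1.82 RPKM in met-2 set-25 mutants and 6.98 in the others, with overlap (-1.29 ± 0.33, limma adjusted p = 0.179).

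The longest runs differed in which of their windows changed. The run on V 5472001 to 5479000 has 7 windows, and the pseudogene WBGene00022587 overlaps the first. That first window had 16.5 ± 7.41 RPKM in tm1200 and 14.2 ± 3.55 in never-mutated libraries (SD, n = 5 each; log2 fold change 0.15, limma adjusted p = 0.987). In the 6 windows behind it, which overlap no gene, the means were 4.33 to 13.3 RPKM in tm1200 and 0.786 to 2.13 in never-mutated libraries. At V 5477001 the tm1200 libraries had 11.4, 11.6, 10.9, 6.49 and 26 RPKM, against 2.83, 0, 0, 0 and 1.10 in the never-mutated ones in N2, met-2 set-25, ok1457, ok1457 with met-2 set-25, and red11. The repaired set-32 mutants were uneven there: ok1457 at F5 had 42.8, 36.5 and 30.1 RPKM at V 5474001, V 5475001 and V 5477001, while ok1457 at F8 had 3.51, 9.64 and 11. The whole run averaged 10.2 RPKM in tm1200, 11.5 in repaired set-32 mutants, 3.08 in repaired set-32(+) and 3.40 in never-mutated libraries.

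**Figure D5:**
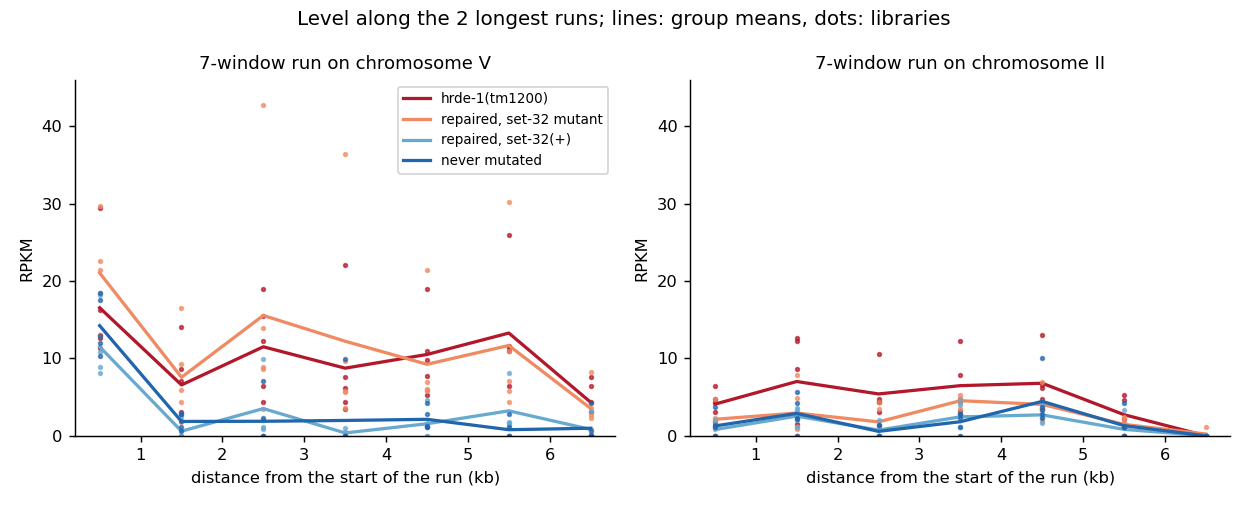
RPKM against distance in kb along the 2 longest runs of GRH windows that are not GRTS, on chromosomes V and II; lines are group means and dots single libraries. On V the tm1200 and repaired set-32 mutant means lie above the others behind the first window, and on II the tm1200 mean is highest in windows 1 to 6 and no window was called.

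The other run of 7, on II 11171001 to 11178000, overlaps the pseudogene WBGene00009511, its antisense RNA gene anr-35 and F37H8.6. It averaged 4.64 RPKM in tm1200, 2.45 in repaired set-32 mutants, 1.44 in repaired set-32(+) and 1.76 in never-mutated libraries. Its largest log2 fold change with tm1200 was 2.07 at II 11173001 (limma adjusted p = 0.0824). Strand is not recorded in the table, so the pseudogene and its antisense partner cannot be told apart. In the run over WBGene00077636 and WBGene00012898 (II 12740001 to 12747000) the mean was 7.92 RPKM in tm1200 and 3.81 in never-mutated libraries. The run over parn-1, frpr-15 and K10C8.4 (V 12690001 to 12697000) stood at 4.92 and 4.10 RPKM, and that over WBGene00007165, F28F8.7 and fbxa-139 (V 15588001 to 15595000) at 3.60 and 3.50 RPKM. Window numbers matched the annotation only weakly at the last of these, so its gene names are uncertain. None of these 4 runs holds any of the 12 windows called with tm1200.

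Few genes of the pathway itself differed. Of 12 nuclear RNAi factors tested at the gene level, limma called 0 in every comparison. With tm1200 hrde-1 alone was lower at an unadjusted p under 0.05, and with set-32 mutation, before or after repair, set-32 alone. Of 25 H3K9 methylation and heterochromatin factors, limma called met-2 as lower in met-2 set-25 mutants, and 0 with tm1200 or with set-32. None of the 25 differed with tm1200 at an unadjusted p under 0.05, and lin-61 was higher in repaired set-32 mutants. The median log2 fold change of the 10 germline markers was 0.01 with tm1200 and 0.20 with set-32 after repair, and that of the 10 oocyte markers 0.07 and 0.19. The 37 tested sperm genes had 0.34 and -0.48, the 13 cuticle genes -0.17 and -1.48, the 14 muscle genes -0.26 and 0.04, and the 10 intestine genes 0.02 and 0.04. Summed over the list, the sperm genes ran from 244 to 434 RPKM in tm1200 and 81.2 to 740 in never-mutated libraries, and from 95.0 to 1386 in repaired set-32 mutants and 177 to 860 in set-32(+) libraries. The cuticle genes ran from 338 to 1051 RPKM in repaired set-32 mutants and 465 to 1693 in set-32(+) libraries. Limma called 0 genes of these 6 lists. Without adjustment, at p under 0.05, 5 sperm genes were higher and 1 muscle gene lower with tm1200, and 1 germline gene (pgl-3) and 1 sperm gene were higher and 3 cuticle genes lower in repaired set-32 mutants. The part of such differences in the results was not tested.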

How the data were processed

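RNA was sequenced from 23 samples, and 19 libraries were used. The values are RPKM per 1 kb window that the authors computed and deposited. Per the submitters' processing notes, Bowtie 0.12.7 was the aligner. The sources used here do not give the build, the treatment of multiply matching reads or the use of strand. The GRH and GRTS marks are the authors'. A further yes or no mark per window, headed misanotated, was not used. Whether any window described here carries it was not examined. Another 24 of the table's columns were not used.

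Depth was estimated from the value of 1 read; 81.8% to 85.0% of positive values were whole multiples within 0.0051 RPKM, so no count test was run. Gene names come from WBcel235 where window numbers overlap a gene by 250 bp. In 197 of 201 segments of 500 windows the best match to its exon density lay at a shift within 300 bp. Windows in the 4 others, on V, are not named. No minimum correlation was required, and it was as low as 0.074 (I 12000001 to 12500000). In the segment V 15500001 to 16000000 the best shift was at the limit, -300 bp, with a correlation of 0.152, so gene names there are uncertain. Coordinates are the table's, counted from 1. No 2 libraries were identical (correlations 0.796 to 0.913).

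Windows were fitted as log2(RPKM + 1) in limma 3.58.1 under R 4.3.3, with a trended prior and with the other mutations as additive terms. In simulated data the fits recovered 0% to 24% of 2-fold and 26% to 90% of 4-fold changes over the 9 comparisons. For 2-fold changes it was 20% with tm1200, 10% with set-32 without repair and 4% for repaired over never-mutated set-32(+). A lack of calls therefore does not show a lack of change of that size. Comparisons within libraries never repaired, and within repaired ones, were fitted on those libraries; comparisons between them on all 19. Nothing says that separate cultures were used, and later generations of a line come from earlier ones: p-values reflect only the variation among these libraries, part of which may be technical. Named were up to 10 called regions per comparison by size, the 3 largest values where none was called, the 10 highest windows and the 5 longest runs. The windows, lists and tests were chosen with earlier results of these data known. Alternatives changed the pseudocount, filter, scaling, depth, divided reads, trend, covariates and libraries; a block by strain background was added after the data were seen.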

Additional observations from a re-analysis of the deposited data

Results flagged for a closer look

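In groups of 4 or 5 libraries, 19 of 124 tests at the named windows found 1 library farther from the rest of its group than the 95% limit of Dixon's test, where chance gives about 1 in 20. Many of these windows hold few reads, so that 1 or 2 reads can set such a gap.

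In the run on V 5472001 to 5479000, ok1457 repaired at F5 stood at 42.8 RPKM at V 5474001 (3.51 to 13.9 in the other repaired set-32 mutants), 36.5 at V 5475001 (3.56 to 9.64) and 30.1 at V 5477001 (4.34 to 11). The tm1200 library with red11 and met-2 set-25 stood at 22.1 RPKM at V 5475001 (3.5 to 7.57 in the other tm1200 libraries) and 26 at V 5477001 (6.49 to 11.6). N2 had 9.91 RPKM at V 5475001, where the other never-mutated libraries were at 0, and 4.25 at V 5478001 (0 to 0.63). Of the repaired set-32(+) libraries, F5 had 9.94 RPKM at V 5474001 (0.91 to 2.02), F4 had 8.08 at V 5477001 (1.37 to 1.79) and met-2 set-25 at F3 had 3.15 at V 5478001 (0 to 0.13).

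Elsewhere the repaired set-32(+) library at F5 stood above its group at I 5453001 in WBGene00020262 (6.62 RPKM, others 0 to 0.91), at WBGene00018851 (1.66, others at 0), at dscc-1 (28.2, others 14.6 to 16.1) and at WBGene00018852 (36.4, others 21.2 to 22.8). Met-2 set-25 repaired libraries stood below at mecr-1 (37.4 RPKM at F5, others 60.7 to 64.6) and at cin-4 (18.6 at F3, others 29.7 to 31.6). Met-2 set-25 with tm1200 had 40.2 RPKM at III 10058001 (others 22.1 to 27). Of the never-mutated libraries, red11 had 6.57 RPKM at V 15591001 in WBGene00007165 (others 2.30 to 2.87) and ok1457 had 4.30 at I 248001 in WBGene00021673 (others 1.10 to 1.42).

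The change from never-mutated to repaired libraries differed between set-32 mutants and set-32(+) by 5.27 on the log2 scale at F15D4.5 and by 4.22 at scrm-4, by limma's test of the difference.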

How the results depend on the processing

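The median log2 fold change of the tested windows stayed positive with tm1200 (0.31 to 0.77) and with set-32 after repair (0.28 to 0.83) under every alternative, and no called window changed sign. Counts of calls moved more. With a pseudocount of 0.1 the calls were 2 for tm1200, 1 for set-32 after repair, 0 for repaired against never-mutated set-32 mutants and 0 for the difference added later. With a minimum mean of 0.2 RPKM they were 1, 1 and 3 in the first 3 comparisons; without a filter 0, 1, 1 and, for the added difference, 1. With reads thinned to the lowest depth they were 6 for tm1200, 2 for repaired against never-mutated mutants and 1 for the difference; without met-2 set-25 libraries 1, 2 and 1. For repaired against never-mutated mutants a pseudocount of 5 gave 3, no covariates 3 and no trend 2; the difference had 0 without covariates and 0 without trend. For met-2 set-25 over 19 libraries, thinning gave 1 and leaving out divided reads 1. The cause of these moves was not tested.

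Leaving out 1 library gave 7 to 13 calls for tm1200, 2 to 3 for set-32 after repair, 2 to 6 for repaired against never-mutated mutants, 0 to 2 for the difference, 0 to 1 for met-2 set-25 over 19 libraries and 0 to 2 after repair. The 7 calls for tm1200 were without tm1200 with red11 or with met-2 set-25. Replicate numbers in these groups do not pair libraries, but strain backgrounds can be matched. A replicate block by strain background, added after the data were seen, gave 9 calls for tm1200, 3 for repaired against never-mutated mutants and 0 in set-32(+). The same libraries without the block gave 8, 2 and 0. Low windows hold a handful of reads, which limits what can be called there.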

Other observations

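Several windows that were not called had all 5 tm1200 values above all 5 never-mutated values; they were picked after their values were seen. A window of the linker histone-like gene hil-8 (I 5465001) averaged 4.57 RPKM in tm1200 and 0.506 in never-mutated libraries (log2 fold change 1.93, limma adjusted p = 0.181). At I 5468001, another window of hil-8, the groups overlapped, with 0.12 to 3.5 and 0 to 1.26 RPKM (0.97, limma adjusted p = 0.942). F59H6.14 (II 2034001) averaged 5.28 and 0.252 RPKM (2.15, limma adjusted p = 0.126). The window of bath-45 at II 13123001 averaged 9.91 and 3.36 RPKM (1.60, limma adjusted p = 0.322). After repair, the hil-8 window at I 5465001 averaged 0.526 RPKM with set-32 mutations and 0.505 with set-32(+), and F59H6.14 averaged 1.07 and 0.228. The hil-8 window at I 5465001 and that of F59H6.14 passed the filter for testing only through the tm1200 libraries.

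Of the 36 windows too low to be tested, 20 had a higher mean in tm1200 than in never-mutated libraries, 10 a lower one and 6 the same.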
